A study of Mus musculus with 5 samples.

Results

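Steady-state RNA was compared between lysates of 2 lines of R1 mouse embryonic stem cells (ESCs), as the FLAG:MKRN1 input less the FLAG:Ctrl input. Each input was an aliquot of lysate saved before RNA immunoprecipitation (RIP), and each was measured on 1 Affymetrix array, so 2 of the 5 arrays of the series make up this comparison. R1 is a male ESC line of 129X1 x 129S1 background. The FLAG:MKRN1 line carried pCAGGS::3xN-FLAG:MKRN1, a constitutively driven fusion of MKRN1 with a FLAG epitope tag, and the FLAG:Ctrl line carried pCAGGS::3xN-FLAG, the vector with the tag alone. MKRN1 is a makorin, a family of proteins with a RING domain and zinc fingers. Per the labels, both lines were G418-resistant, had been freed of feeder fibroblasts by passages on gelatin, and were grown with LIF and 15% serum with no further treatment. The labels call the lines clones; how many clones went into each lysate is not given in the sources used here. Of 19937 genes with a probe set naming 1 gene, 11502 passed a filter on signal level (a log2 value of 5.76, the median of all probe sets), each taken at its brightest probe set.

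No group had a replicate, so every difference below describes 2 lysates, has no replicate check and carries no error or test. A second pair of arrays from the same lysates was used only to check direction. It sets the IgG RIP of the FLAG:MKRN1 lysate against the anti-FLAG RIP of the FLAG:Ctrl lysate, both of which recover background RNA. This pair of control RIPs used a different antibody on each side, and it gives no spread between cultures or clones. In each array the RNA is that of a whole culture, so fewer cells of a kind and less RNA per cell cannot be told apart.

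ESCs in LIF and serum are held in self-renewal mainly by LIF acting through STAT3 and by BMP ligands acting through Id genes, while FGF4 acting through ERK moves them toward differentiation. Nodal and Activin signal through SMAD2 and SMAD3 and turn on their own secreted inhibitors, the Lefty proteins. Such cultures are mixed, and hold cells that express markers of primitive endoderm, of the 2-cell embryo or of early neural fate beside cells with the naive factors Nanog, Klf4 and Esrrb.

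Both inputs carried the ESC markers. All 13 naive pluripotency markers taken to define the cell type were above the level filter in both lysates. Pou5f1, the central pluripotency factor, stood at 12.13 in the FLAG:Ctrl input and 12.04 in the FLAG:MKRN1 input. Sox2 stood at 11.44 and 11.58, and Nanog at 11.01 and 10.86. Of 12 fibroblast markers, 8 were above the filter in the FLAG:Ctrl input and 6 in the FLAG:MKRN1 input, with summed log2 values of 75.3 and 73.6. Mkrn1 itself differed by -0.09 between the inputs, so its probe set does not tell the lines apart. The Y-linked genes Eif2s3y and Uty were detected on both inputs and differed by 0.40 and 0.00.

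The 2 inputs were close over all probe sets, with Pearson's r of 0.982 computed across probe sets rather than replicates. The median difference over the kept genes was 0.00 with an SD of 0.34. Above 0 lay 38.6% of kept genes and below 0 lay 47.3%, and the rest had equal values on both arrays. Past 2-fold either way were 192 genes (1.67%), of which 101 (0.878%) were higher in the FLAG:MKRN1 input and 91 (0.791%) were lower. Of the 101, 26 had a FLAG:Ctrl input below the level filter, and of the 91, 12 had a FLAG:MKRN1 input below it, so these passed the filter only through the other arrays. With low values raised to the filter, 89 genes were higher and 84 lower. Between the control RIPs 32 genes (0.278%) were past 2-fold higher and 20 (0.174%) lower. In the pair of control RIPs, 80 of the 101 (79.2%) lay above 0, against 38.3% of all kept genes. Of the rest, 7 were equal and 14 lay below. Of the 91 lower genes, 67 (73.6%) lay below 0 there, against 44.0% of all kept genes, while 11 were equal and 13 lay above. The size was smaller in the control RIPs, with a median of 0.37 against 1.32 for the higher genes and of -0.22 against -1.18 for the lower genes. In both pairs, 23 genes were at least 2-fold apart the same way, 13 higher and 10 lower, or 0.2% of kept genes. Of the 13, 7 had a FLAG:Ctrl input below the filter, and 11 stayed past 2-fold in both pairs with low values raised to it; Eif4a3l1 and BC147527 did not. All 10 lower genes did.

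**Figure D1:**
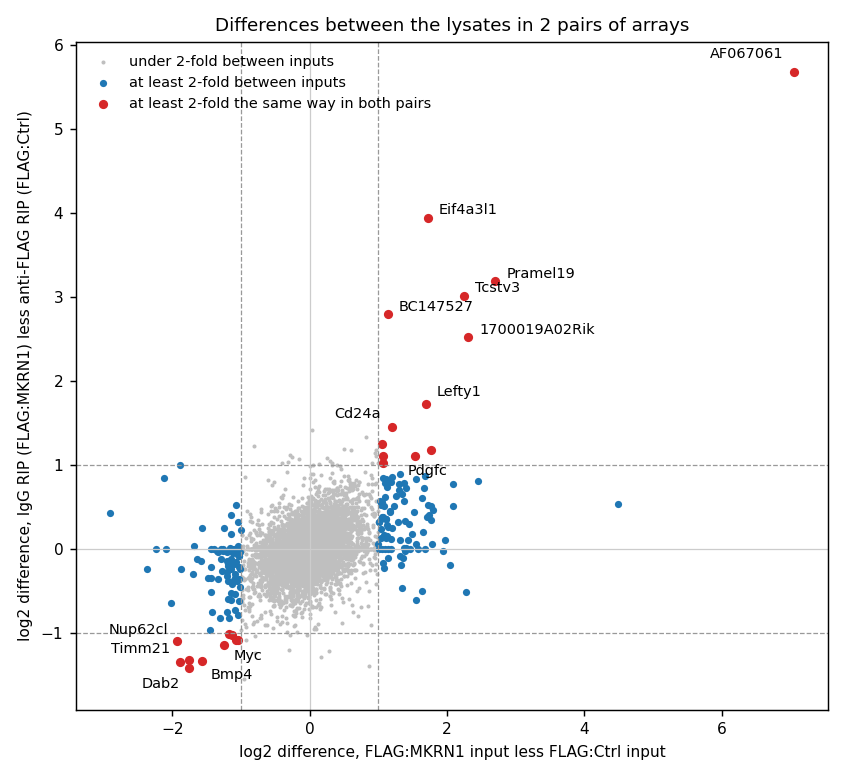
Each point is 1 of 11502 genes; the x axis is the log2 difference between the inputs and the y axis the log2 difference between the control RIPs of the same lysates, with dashed lines at 2-fold. The 23 red genes are at least 2-fold apart in both pairs, and AF067061 lies far from all others at 7.06 and 5.68.

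The widest gap between the lysates was at AF067061, a gene of a repeated cluster on chromosome 13 whose relatives are transcribed in 2-cell embryos. AF067061 stood at 3.88 in the FLAG:Ctrl input and 10.94 in the FLAG:MKRN1 input, and at 5.94 and 11.62 in the control RIPs. In both pairs the FLAG:MKRN1 lysate was thus the high one. The difference was 133-fold between the inputs as deposited, and 36.2-fold when the FLAG:Ctrl value was raised to the level filter. BC147527 and Tcstv3, the next kept genes along the same cluster, went the same way. Tcstv3, which belongs to a family of 2-cell-stage transcripts, stood at 5.29 and 7.54 in the inputs and at 5.83 and 8.84 in the control RIPs. BC147527 stood at 4.93 and 6.06 and at 4.35 and 7.14, so both of its FLAG:Ctrl values lay below the filter. The genome holds near-identical copies of these genes and whether their probes are shared is not known here, so the values of single members are uncertain.

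Several genes elsewhere in the genome were also below the level filter in the FLAG:Ctrl input and higher in both FLAG:MKRN1 arrays. Pramel19, on chromosome 4, belongs to the Pramel family, which is known for expression in germ cells and early embryos. It stood at 4.33 and 7.03 in the inputs and at 3.92 and 7.11 in the control RIPs, 2.42-fold between the inputs with low values raised to the filter. Eif4a3l1, on chromosome 6 and named for its likeness to the RNA helicase gene Eif4a3, stood at 5.01 and 6.74 in the inputs and at 4.06 and 8.01 in the control RIPs. Its input difference of 1.72 comes to 1.97-fold with the FLAG:Ctrl value raised to the filter. For 1700019A02Rik, on chromosome 1, the inputs stood at 4.84 and 7.15 and the control RIPs at 5.91 and 8.43. Fam183b stood at 5.45 and 7.22 and at 6.39 and 7.57. Eif4a3l1 was singled out after its values were seen, as one of the 23 genes at least 2-fold apart in both pairs.

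Promoter windows of AF067061 and Eif4a3l1 are shown because their local alignment scored best of all pairs of windows compared. The pairs were drawn from 8 genes at least 2-fold higher in both pairs of arrays that had a window. The likeness of these 2 windows is thus a maximum over many pairs. Both genes were below the level filter in the FLAG:Ctrl input and higher in both FLAG:MKRN1 arrays. Each window runs from 250 bases before to 50 after the gene's start, from RefSeq on GRCm38.p6, plus strand: chr13:120262845-120263144 for AF067061 and chr6:136327289-136327588 for Eif4a3l1. Capitals mark the longest shared run, CACACCTTTAAT.
AF067061: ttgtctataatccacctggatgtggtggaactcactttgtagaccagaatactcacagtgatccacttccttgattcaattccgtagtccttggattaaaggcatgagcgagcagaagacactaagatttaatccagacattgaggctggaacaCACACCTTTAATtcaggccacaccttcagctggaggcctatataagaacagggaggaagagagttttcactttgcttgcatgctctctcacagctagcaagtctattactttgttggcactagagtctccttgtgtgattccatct
Eif4a3l1: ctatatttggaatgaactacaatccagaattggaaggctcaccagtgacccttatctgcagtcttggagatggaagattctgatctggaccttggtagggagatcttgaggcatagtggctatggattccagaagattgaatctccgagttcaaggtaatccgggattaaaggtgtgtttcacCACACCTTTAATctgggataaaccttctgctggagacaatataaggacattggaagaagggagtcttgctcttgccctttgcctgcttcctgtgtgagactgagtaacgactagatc
The run starts at position 155 of the first window and 184 of the second. Around it, the best local alignment held 66 identical positions of 89, or 74.2%. On either strand (ATTAAAGGTGTG on the other) the run was in 56 of 32851 promoter windows, or 0.17%. Of the 54 genes with those windows 6 were kept. Besides AF067061 and Eif4a3l1, from which the run was taken, these were Gm16381, Pemt, Sgk1 and Zbed3, which differed by 0.25, 0.00, -0.83 and 0.01. Of the 13 genes higher in both pairs, 8 had a window, and only these 2 held the run. The run was found by comparing these windows with the values known, and a match of letters is a description.

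Counts over a list are read against the shares of all kept genes past 2-fold, 0.878% higher and 0.791% lower. Most lists held at most 2 such genes, too few to set a list apart. Lists and members were chosen with earlier results of these data known. Some genes, such as Myc, Klf4 and Tead4, are on more than 1 list, so the lists are not separate. In the Nodal, BMP and FGF lists, the genes at least 2-fold apart encoded a secreted inhibitor, a ligand and a feedback inhibitor. In the Nodal and Activin list 23 of 30 genes were kept; 1 was at least 2-fold higher and none lower, and the list's median was -0.04. Lefty1, on chromosome 1, encodes a secreted inhibitor of Nodal and is itself a target of the pathway. It stood at 7.90 in the FLAG:Ctrl input and 9.58 in the FLAG:MKRN1 input, and at 7.83 and 9.56 in the control RIPs, so both FLAG:MKRN1 arrays were the higher by 3-fold or more (differences of 1.69 and 1.73). The related inhibitor Lefty2 differed by 0.66 between the inputs and 0.35 in the control RIPs. Inhbb, whose product forms Activin B, was on the lower side, at 7.42 and 6.52 in the inputs, with differences of -0.90 and -0.70. Nodal differed by -0.09 and 0.40, opposite in sign between the pairs, and the receptor Acvr1b by -0.34 and -0.28.

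Of the BMP genes, a ligand stood apart. Bmp4, on chromosome 14, supports ESC self-renewal in serum, and it stood at 10.41 and 8.83 in the inputs and at 9.98 and 8.64 in the control RIPs. Both FLAG:MKRN1 values were below both FLAG:Ctrl values, 2.98-fold between the inputs. It was the only one of 21 kept BMP genes at least 2-fold apart, and the list's median was 0.00. Over the alternative settings that median ran from -0.32 to 0.02. The target Id1 differed by -0.63 and -0.22, and Dusp9, a phosphatase downstream of BMP that acts on ERK, by -0.64 and -0.03.

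In the FGF and ERK list, 1 of 26 kept genes was at least 2-fold lower and none higher, around a median of -0.04. Spry4, a feedback inhibitor that ERK signalling induces, stood at 9.51 and 8.43 in the inputs and at 9.10 and 8.38 in the control RIPs. Fgfbp1, which releases FGFs from the matrix, differed by -0.89 and -0.17 and the ligand Fgf4 by -0.46 and -0.12. The ETS factor Etv1 differed by 0.27 and 0.12, but its other probe set by -1.18 between the inputs. The feedback inhibitor Dusp6 differed by -0.29 and -1.03, and the ETS factor Etv4 by -0.03 and -1.03, both less between the inputs. Spred2, also an inhibitor, was on the other side at 0.41 and 0.13, and its other probe set differed by -0.25.

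Of 25 kept LIF and STAT3 genes, 2 (8.00%) were at least 2-fold lower, against 0.791% of all kept genes, and none higher, with a median of 0.00. Both were transcription factors that LIF induces. Myc, on chromosome 15, stood at 9.80 and 8.55 in the inputs and at 10.15 and 9.00 in the control RIPs. Klf4, on chromosome 4, stood at 8.82 and 7.65 and at 8.78 and 7.76. For both genes each FLAG:MKRN1 value lay below each FLAG:Ctrl value. The LIF feedback inhibitor Socs2 differed by -0.53 and -0.24 and the target Klf5 by -0.38 and -0.30, while the highest of the list, the kinase gene Jak1, differed by 0.14.

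In the remaining signalling lists, few genes were 2-fold apart. In the Wnt list of 34 kept genes and the Notch list of 16 none was at least 2-fold apart either way. Among Wnt genes the inhibitors Znrf3 and Sfrp2 were highest between the inputs, at 0.66 and 0.58, with -0.26 and 0.08 in the control RIPs. In the Hedgehog list none of 9 was 2-fold apart. The median was -0.16 between the inputs, with 5 genes below 0 and 2 above, but 0.08 in the control RIPs. Only 2 genes lay below 0 in both pairs. The receptor Ptch1 was highest between the inputs, at 0.63 and 0.37. Of 25 insulin, IGF and PI3K genes none was 2-fold apart. Ddit4, an inhibitor of mTORC1, was highest there at 0.95 and 0.15, and the kinase gene Sgk1 and the lipid phosphatase gene Inpp5d were lowest at -0.83 and -0.72.

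The Hippo list held 1 lower gene of 17. Tead4, a DNA-binding partner of YAP that is needed for trophectoderm, stood at 9.07 and 7.87 in the inputs and at 8.63 and 8.25 in the control RIPs. Retinoic acid genes had a median of -0.23 between the inputs and -0.04 in the control RIPs over 12 kept genes; the input median was -0.02 with no level filter and 0.00 with a higher one. Crabp2, a cytosolic carrier of retinoic acid, stood at 9.61 and 8.17 and at 9.50 and 9.15, and it alone was at least 2-fold apart. Stra8, which retinoic acid induces, differed by -0.65 and -0.91. Of 31 immediate early genes 2 (6.45%) were lower, Myc and Gadd45b. Gadd45b, a stress-induced gene, stood at 8.35 and 6.64 in the inputs and at 7.78 and 7.48 in the control RIPs.

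**Figure D2:**
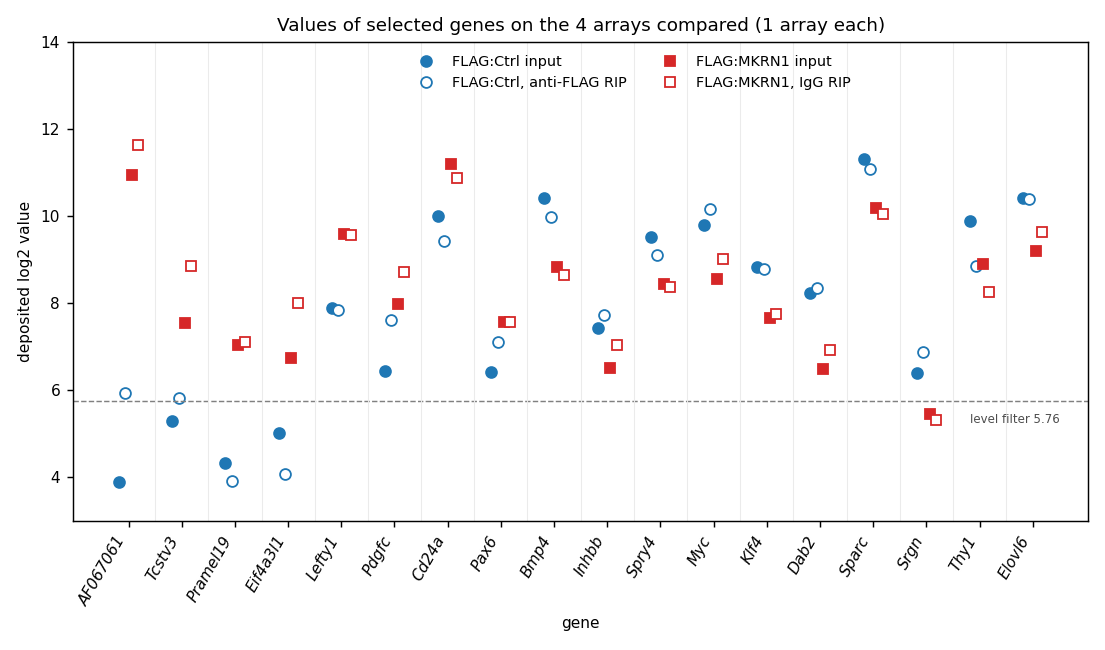
Deposited log2 values of 18 genes (x axis) on the 4 arrays compared, 1 array a symbol; circles are FLAG:Ctrl and squares FLAG:MKRN1 lysate, filled for inputs and open for control RIPs, and the dashed line is the level filter at 5.76. For Lefty1 both FLAG:MKRN1 values lie above both FLAG:Ctrl values, and for Bmp4, Myc, Klf4, Dab2 and Sparc both lie below.

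Naive pluripotency genes were mixed in sign: of 30 kept genes 13 lay above 0 and 14 below, with a median of 0.00, and Klf4 alone was at least 2-fold apart. On the lower side, Prdm14 differed by -0.85 and -0.39, the nuclear receptor gene Nr0b1 by -0.79 and -0.52, and Tbx3 by -0.53 and -0.95. On the higher side were Fbxo15 at 0.65 and 0.50 and Dppa3, a maternal-effect gene also known as Stella, at 0.63 and 0.71. A second probe set of Dppa3 differed by 1.24 and 1.76. Among 18 primed pluripotency genes none was 2-fold apart. Lin28b, which blocks processing of let-7 microRNAs, was highest at 0.91 and 0.47, followed by Grhl2 at 0.82 and -0.06. Lowest was Tcf15 at -0.64 and -0.46, and Foxd3 differed by -0.62 and 0.00. Between the inputs 9 of the primed genes lay above 0 and 8 below.

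Primitive endoderm is the layer that covers the inner cell mass. The kept genes of its list were mostly lower in the FLAG:MKRN1 lysate. Of 19 kept genes 14 (73.7%) lay below 0 between the inputs, against 47.3% of all kept genes. Of these 14, 12 lay below 0 in the control RIPs too, where 44.0% of all kept genes did. The list's median was -0.16 between the inputs and -0.14 in the control RIPs. At least 2-fold lower were 2 of its genes (10.5%), against 0.791% of all kept genes. Dab2, an endocytic adaptor of the endoderm layer, stood at 8.23 and 6.48 in the inputs and at 8.34 and 6.92 in the control RIPs. By the median over its 2 probe sets its input difference was -0.89, under 2-fold, which leaves Sparc as the only such gene. Sparc, a secreted matrix-binding glycoprotein, stood at 11.31 and 10.17 and at 11.08 and 10.05. Srgn, a proteoglycan gene, stood at 6.40 and 5.44 and at 6.88 and 5.32, so both of its FLAG:MKRN1 values were under the level filter. In all 3 genes both FLAG:MKRN1 arrays were the lower.

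The laminin genes of the basement membrane went the same way as Sparc, with Lama1 at -0.61 and -0.92, Lamb1 at -0.59 and -0.45 and Lamc1 at -0.16 and -0.14. Of 10 primitive endoderm markers taken to define the cell type, 5 passed the level filter, while Gata6, Sox17, Pdgfra, Afp and Ttr did not. The median level of the 10 was 5.83 in the FLAG:Ctrl input and 5.66 in the FLAG:MKRN1 input. Of the kept factors that specify the layer, Sox7 differed by -0.33 and -0.14 and Foxa2 by -0.05 and -0.28. Gata4 differed by 0.04 and -0.02 and Hnf4a by 0.16 and 0.23. Dab2, Sparc and the laminins are also made by other cell types. Of the 12 kept genes on the fibroblast list none was at least 2-fold apart, and the list's median was -0.06. Thy1, a surface glycoprotein of fibroblasts that some ESCs also carry, was lower at -0.99 and -0.60, Col1a1 and Col3a1 differed by -0.10 and -0.07, and S100a4 was on the higher side at 0.72 and 0.79. The part of other cell types in these differences was not tested.

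The germline and 2-cell-like list split by gene. Of 13 kept genes 3 were at least 2-fold higher, all of them from the chromosome 13 cluster and all below the level filter in the FLAG:Ctrl input. BC147527 came to 1.24-fold with low values raised to the filter, which leaves 2. The list's median was 0.28 between the inputs and 0.33 in the control RIPs. With a higher level filter, which leaves fewer of these genes, the median turned to -0.16. Prdm1, the repressor that starts the germ cell program, differed by 0.80 and 0.91. Mael and Taf7l, which act in the germ line, were on the lower side at -0.80 and -1.24 and at -0.80 and -0.87, and the meiotic genes Sycp3 and Stag3 differed by -0.05 and -0.46.

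Of 18 kept trophectoderm genes, 2 (11.1%) were at least 2-fold lower, Tead4 and Rhox9. The list's median was -0.05 between the inputs, with 6 genes above 0 and 11 below. On the higher side Krt7 differed by 0.52 and 0.00 and Tfap2c by 0.51 and -0.20. Rhox9, an X-linked homeobox gene, stood at 10.23 and 8.94 in the inputs but at 10.22 and 10.10 in the control RIPs. Peg10, a paternally expressed gene of the placenta derived from a retrotransposon, was lower by nearly the same amount in both pairs, at -0.93 and -0.94. Among 12 kept neural genes Pax6, a homeobox factor of the eye and forebrain, was 2.24-fold higher, at 6.41 and 7.57 in the inputs and 7.12 and 7.56 in the control RIPs. Neurod1 differed by 0.79 and 0.05 and Tubb3 by 0.39 and 0.63, while Nefl was on the lower side at -0.54 and -0.03. The neural list's median was 0.06 between the inputs and 0.00 in the control RIPs. Between the inputs 7 of its genes lay above 0 and 3 below. The 8 kept mesendoderm genes lay close to 0, between -0.21 (Eomes) and 0.05 (Snai1).

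Imprinted genes differed in both directions, with 1 of 24 at least 2-fold higher and 1 lower around a median of -0.02. Mest, expressed from the paternal allele, stood at 7.43 and 8.72 in the inputs and at 7.48 and 8.25 in the control RIPs. Rian, a maternal noncoding RNA of the Dlk1 and Meg3 cluster, stood at 9.24 and 7.35 in the inputs and at 5.43 and 6.43 in the control RIPs, so its direction turned. Meg3 of the same cluster differed by -0.72 and -0.17. Of 25 actin and mesenchymal genes only Myl9, a myosin regulatory light chain, was 2-fold apart, at 6.01 and 7.76 in the inputs and 7.76 and 8.16 in the control RIPs; the FLAG:MKRN1 input was level with the FLAG:Ctrl RIP.

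**Figure D3:**
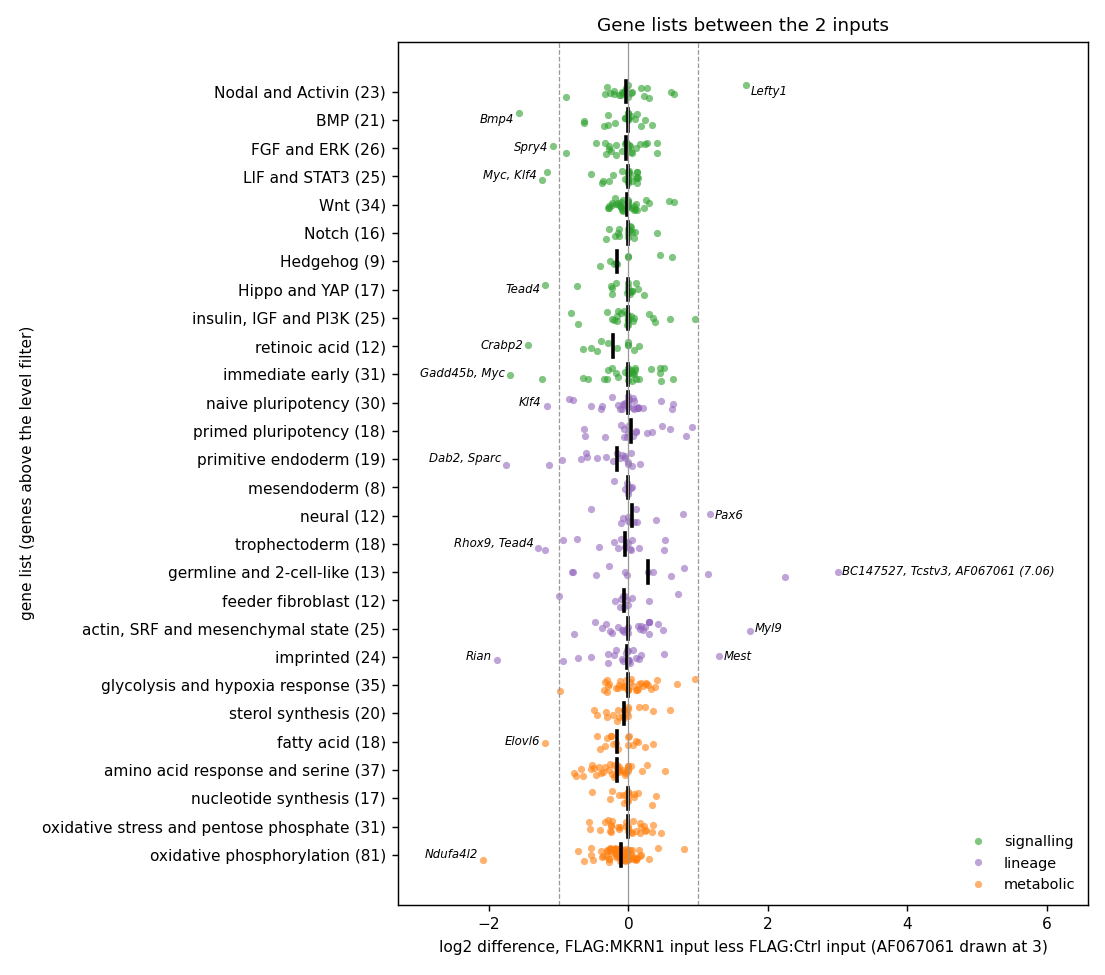
Each point is a kept gene and each row 1 of 28 signalling, lineage or metabolic gene lists (y axis, with the number of genes); the x axis is the log2 difference between the inputs, black bars are medians, dashed lines mark 2-fold, and genes 2-fold apart are named (AF067061, at 7.06, is drawn at 3). Most medians lie near 0, with retinoic acid at -0.23 and the germline and 2-cell-like list at 0.28.

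Metabolic lists had small differences. Genes of the amino acid response and of serine synthesis were the most one-sided. Of 37 kept genes 30 (81.1%) lay below 0 between the inputs, against 47.3% of all kept genes. Of these 30, 25 lay below 0 in the control RIPs as well, where 44.0% of all kept genes did. The list's median was -0.17 and -0.13, and none of its genes was at least 2-fold apart. Phgdh, the first enzyme of serine synthesis, was lowest at 8.46 and 7.68 in the inputs, but level in the control RIPs at 8.59 and 8.58. Next were Ppp1r15a, Ddit3 and Shmt2, at -0.75, -0.68 and -0.65 between the inputs and -0.41, -0.22 and -0.11 in the control RIPs. Asns, the asparagine synthetase gene, differed by -0.46 and -0.29, and Atf4, the factor that drives this response, by -0.16 and -0.26.

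Oxidative phosphorylation genes also lay mostly below 0, in 62 of 81 (76.5%, against 47.3% of all kept genes) with a median of -0.11. Only 30 of the 62 were below 0 in the control RIPs, against 44.0% of all kept genes, and the median there was 0.00. Ndufa4l2, a hypoxia-induced relative of a respiratory chain subunit, stood at 9.03 and 6.94 in the inputs and at the same 8.35 in both control RIPs. It alone was at least 2-fold apart. Cox7a1 differed by -0.73 and 0.24, and Ndufa12, the highest, by 0.80 and 0.05.

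Of 35 glycolysis and hypoxia genes none was 2-fold apart, with a median of 0.00. The glycolytic enzymes Pkm, Aldoa and Ldha differed by -0.18, -0.13 and -0.05 and Pgk1 by 0.28. Hypoxia targets lay on both sides, with Vegfa, the endothelial growth factor, at -0.98 and -0.34 and Ankrd37 at 0.70 and 0.76. Fatty acid genes had a median of -0.16 in both pairs over 18 genes. Elovl6, which elongates saturated fatty acids, was the only one 2-fold lower, at 10.40 and 9.20 in the inputs and 10.38 and 9.62 in the control RIPs, and Fasn differed by -0.45 and -0.05. None of 20 sterol synthesis genes, 17 nucleotide synthesis genes or 31 oxidative stress genes was 2-fold apart. Their medians were -0.07, -0.01 and -0.01.

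Among lists of general cell state, none of 28 cell cycle genes, 19 p53 target genes or 62 ribosomal protein genes was 2-fold apart. Of 23 histone genes transcribed in S phase 1 was at least 2-fold higher, H2ac1 at 1.12, and the median was 0.27 between the inputs and 0.00 in the control RIPs. Of 39 small nucleolar RNAs 12 (30.8%) were at least 2-fold higher, against 0.878% of all kept genes, and 1 lower, Snora69 at -1.88. Snora7a stood at 5.69 and 10.18 in the inputs but at 8.56 and 9.09 in the control RIPs, and Snord16a differed by 2.28 and -0.51. The class median of 0.56 between the inputs over 39 genes was 0.10 in the control RIPs.

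Other genes at the extremes fell outside the lists, and many of them differed in 1 pair only. Gm9958 was higher at 4.96 and 7.42 in the inputs and at 5.56 and 6.36 in the control RIPs. AY512931 and 2410124H12Rik differed by 2.04 and 1.97 between the inputs but by -0.19 and 0.10 in the control RIPs. Nms, the neuromedin S gene, stood at 5.60 and 7.38 in the inputs and at 5.55 and 5.60 in the control RIPs.

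On the lower side, 6720489N17Rik had the largest input difference, with 8.93 and 6.02 in the inputs but 7.90 and 8.33 in the control RIPs. Tspan5, a tetraspanin gene, stood at 9.23 and 7.00 in the inputs and at 8.56 in both control RIPs. Marchf11, a membrane-bound ubiquitin ligase gene, differed by -2.36 and -0.24, or by -1.18 between the inputs with the median over its 2 probe sets. Lower in both pairs were Timm21, a subunit of the mitochondrial import machinery, at 9.14 and 7.25 and at 10.34 and 8.99, and Calml4, a calmodulin-like gene, at 9.21 and 7.45 and at 9.99 and 8.66. Nup62cl stood at 7.67 and 5.74 and at 7.97 and 6.87. Higher in both pairs, besides those above, was Pdgfc, a ligand of PDGF receptor alpha, at 6.45 and 7.98 in the inputs and 7.61 and 8.72 in the control RIPs.

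Differences followed the position of genes on 2 chromosomes. Over 649 kept genes of chromosome 8 the median difference was 0.14 between the inputs and 0.15 in the control RIPs, and 68.3% and 73.5% of them lay above 0. The medians of the other autosomes and X, 19 chromosomes, ran from -0.02 to 0.00 in both pairs, with 30.9% to 47.9% of genes above 0 between the inputs. The Y chromosome held 5 kept genes with medians of 0.02 and 0.30, and the mitochondrial genome 2 with 0.15 and 0.04. The size depended on signal level: over the 336 brighter genes of chromosome 8 the medians were 0.24 and 0.23, and with no level filter the input median was 0.03. Chromosome 8 was singled out after its values were seen. On the other autosomes and X, the share of genes at least 2-fold higher ran from 0.267% (chromosome 4) to 2.22% (chromosome 10). Chromosome 13 stood at 1.74%, and chromosome 19 held no gene at least 2-fold lower. On chromosome 8 too none was lower, and 11 genes (1.69%) were at least 2-fold higher, against 0.878% of all kept genes. They included Prmt7, an arginine methyltransferase gene, at 8.43 and 9.80 in the inputs and 9.19 and 9.97 in the control RIPs, and Gcsh, of the glycine cleavage system, at 10.36 and 11.49 and at 11.49 and 11.78.

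On chromosome 10 a stretch of 162 kept genes from Tbpl1 to Derl3 stood apart. It was picked from the input values after they were seen, as 3 successive blocks of 54 neighbouring kept genes with a median of at least 0.1. Its median was 0.28 between the inputs and 0.32 in the control RIPs, and 72.8% and 78.4% of its genes lay above 0. For its 80 brighter genes the medians were 0.42 and 0.44. The remaining 6 blocks after it had medians from -0.07 to 0.00 between the inputs and the block before it 0.02. Because the stretch was picked by its input values, high input differences in it follow in part from that choice. The control RIP values were not used to pick it. In the stretch 12 genes (7.41%) were at least 2-fold higher, against 0.878% of all kept genes, and none was lower. Among them Cd24a, a surface glycoprotein gene, stood at 9.99 and 11.19 in the inputs and 9.42 and 10.87 in the control RIPs, and Tfam, the factor that packages mitochondrial DNA, at 8.00 and 9.30 and at 9.30 and 10.00. Cdc40 and its neighbour Wasf1 were both higher, by 1.56 and 1.12.

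**Figure D4:**
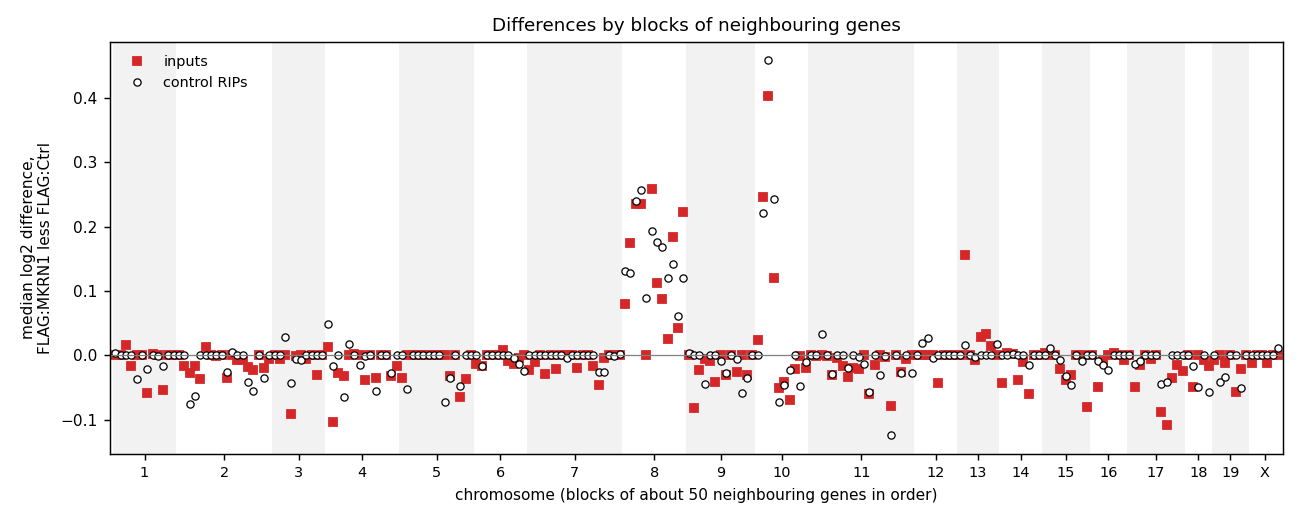
Each block of about 50 neighbouring kept genes is drawn in chromosome order (x axis) at its median log2 difference (y axis), as red squares for the inputs and open circles for the control RIPs. Of 220 blocks, 10 reach 0.1 in both pairs, 7 of them on chromosome 8 and 3 on chromosome 10.

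Of 220 blocks in all, 11 had an input median of 0.1 or more. Of these 7 lay on chromosome 8, out of its 12, and 3 made up the chromosome 10 stretch. The other, on chromosome 13 from H4c9 to Rreb1, holds histone genes and stood at 0.16 between the inputs and 0.02 in the control RIPs. At -0.1 or below between the inputs were 2 blocks, on chromosomes 4 and 17, and none reached -0.1 in both pairs. Several list genes named above lie in the 2 segments: Ddit4, Lin28b, Prdm1, Srgn and Nodal in the chromosome 10 stretch, and Tubb3 and Ankrd37 on chromosome 8. Of these Srgn went against its segment in both pairs and Nodal between the inputs, and the part of position in the differences of the others was not tested. Lefty1, Bmp4, Myc, Klf4, Dab2, Sparc and AF067061 lie elsewhere. Leaving both segments out, 78 higher and 91 lower genes were past 2-fold, and the median of the 10691 genes left was 0.00 in both pairs.

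**Figure D5:**
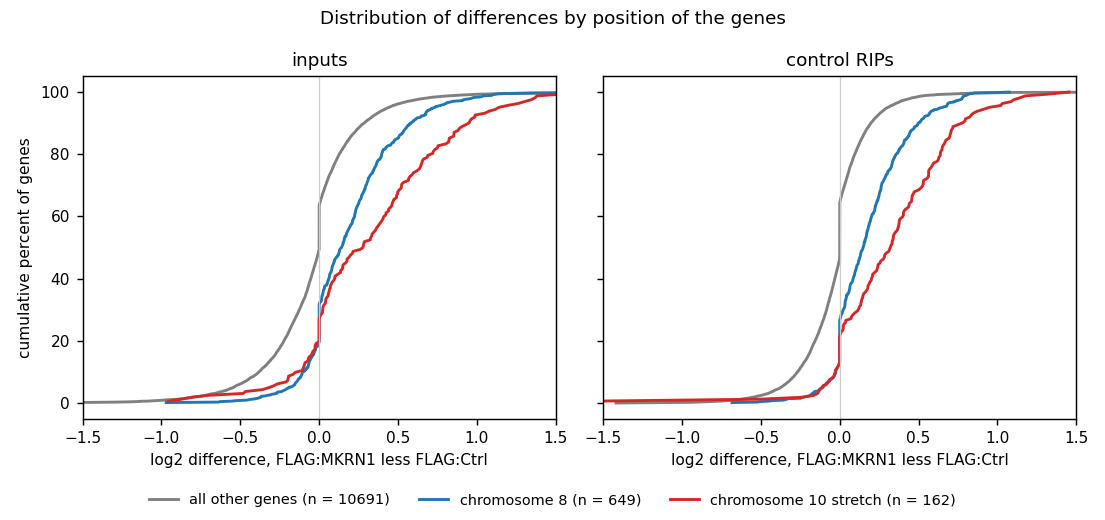
Cumulative percent of kept genes (y axis) by log2 difference (x axis, shown to 1.5 either way), for the inputs on the left and the control RIPs on the right. In both pairs the curves of 649 chromosome 8 genes and of 162 genes of the chromosome 10 stretch lie to the right of the curve of the 10691 other genes above a difference of 0.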

How the data were processed

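The 5 labelled samples, 1 array each, were grouped by title, and 4 were used for differences. The anti-FLAG RIP of the FLAG:MKRN1 lysate entered only the level filter and the choice of probe set, both by the mean of 5 arrays. Pramel19 and BC147527 stood at 7.71 and 9.57 on that array, and without it their means lay under the filter. The authors deposited 1 log2 value per probe set and array, a scale inferred from the range of values; the sources used here do not give their background correction, summarisation or normalization. Per the labels, 10 ng of RNA per sample was used to make cDNA. Precision is limited by the number of arrays. Of 34760 probe sets 21640 named 1 gene symbol in the platform annotation, 1321 several and 11799 none; 21553 matched the RefSeq table of GRCm38.p6, which gave current symbols, chromosomes and gene order. A gene was represented by its brightest probe set, by the mean of 5 arrays. Differences of deposited values were counted at 2-fold, and equal means within 1e-06. No test was possible with 1 array a group. Genes named were the 15 highest and 15 lowest input differences, list members at least 2-fold apart or among the 6 largest in a list, core pluripotency, makorin and sex-linked genes, and neighbouring pairs; others were named after their values were seen. The comparison, lists and members were chosen with earlier results of these data known. The counting was tested on simulated data with planted differences and less spread than these arrays. That checks the code and gives no rate of false calls here. Software was Python 3.11.15, pandas 2.3.3, statsmodels 0.14.6 and Biopython 1.88. Alternatives covered centring, quantile normalization, removal of a trend with level, level filters, probe-set choice and thresholds.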

Additional observations from a re-analysis of the deposited data

Results flagged for a closer look

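At 3 named genes past 2-fold between the inputs, the control RIPs differed the other way by at least 1.5-fold, which was not tested. Counting smaller differences too, 14 of the 101 higher and 13 of the 91 lower genes lay on opposite sides. Nynrin, a gene with retroviral ancestry, was lower by the inputs (-2.12) and higher in the control RIPs (0.84), and its 2 other probe sets differed by 0.42 and 0.21 between the inputs. Rian differed by -1.89 and 1.00. The small nucleolar RNA Snord35a differed by 1.54 and -0.61.

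Probe sets outside the rule of 1 gene symbol also held signal that differed between the inputs. Among 705 probe sets with several symbols above the level filter, 19 were at least 2-fold higher in the FLAG:MKRN1 input and 9 lower. Together these were 3.97%, against 1.67% of the kept genes. Among 4197 probe sets above the filter and not named in the platform annotation, 199 were higher and 166 lower, together 8.70%.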

How the results depend on the processing

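No paired analysis was possible because each group holds 1 array and the labels number no replicates, which leaves fewer than 2 numbers to share. With no level filter the chromosome 8 input median was 0.03 and 5 lists had a median of 0.1 or more in size, against 9. With the filter at the 75th percentile, which tests fewer genes, 39 genes were higher, 43 lower and 12 past 2-fold in both pairs. There the Hedgehog median turned from -0.16 to 0.23 and that of the germline and 2-cell-like list to -0.16. Also there, 14 lists reached 0.1, the chromosome 8 input median was 0.24, and the chromosome 10 stretch stood at 0.42 and 0.44. Taking the median over probe sets turned Nynrin to 0.21 and moved Dab2 to -0.89, under 2-fold, and Marchf11 to -1.18. With low values raised to the level filter BC147527 (0.31), Eif4a3l1 (0.98) and Snora21 (0.92) were under 2-fold. At 1.5-fold 404 genes were higher, 455 lower and 129 in both pairs; at 3-fold 28, 15 and 6, with 65.1% higher. At 4-fold 10 were higher and 6 lower, 62.5% went the same way in the control RIPs and 4 were past 4-fold there. Over all settings the BMP median ran from -0.32 to 0.02, that of trophectoderm from -0.27 to -0.02 and that of fibroblasts from -0.20 to 0.00. Of 314 alternative list medians 302 moved by at most 0.1. Of 1464 alternative values of single genes 1452 moved by no more than a 1.5-fold step. Many of these values could not move: probe-set choice leaves a gene with 1 probe set as it was. Raising low values likewise leaves a gene with both inputs above the filter unchanged. Where fewer or more genes or another threshold do not account for a value, the cause was not tested.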
